A study of Bos taurus with 47 samples.

Results

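The genes described here are the 37 genes of the bovine mitochondrial genome, followed through fetal, newborn and grown skeletal muscle. They were chosen by place: they are the 37 consecutive rows of the fetal count table from ENSBTAG00000043548 to ENSBTAG00000043582, and the rows with the same identifiers in the tables of birth and slaughter. Each table lists 27607 identifiers. Mammalian mitochondrial DNA holds 37 genes, of which 13 encode proteins, 2 encode ribosomal RNAs and 22 encode transfer RNAs.

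The samples came from the Longissimus, a long muscle of the back, in a study of how cows' weight gain in early pregnancy bears on later generations. The F0 generation were crossbred Angus heifers, managed to gain 0.28 kg per day (low gain, LG) or 0.79 kg per day (moderate gain, MG) through the first 84 days of pregnancy and then kept as 1 herd. Their F1 daughters were raised alike, and Longissimus thoracis was sampled at birth (8 LG and 8 MG libraries) and at slaughter (8 LG and 7 MG libraries as labelled, against 7 LG and 8 MG in the text of the protocol). Longissimus dorsi of F2 fetuses of day 84, grandoffspring of the F0 heifers, gave 8 LG and 8 MG libraries. LG and MG therefore name the diet of the dam for F1 samples and of the granddam for F2 fetuses.

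Mitochondrial DNA is a small circle, present in many copies per cell, that is read from both strands into long transcripts. The transfer RNAs lie between most of the other genes, and cutting them out releases the messenger and ribosomal RNAs, most of which then receive short poly(A) tails. The proteins are subunits of the respiratory chain: ND1 to ND6 and ND4L of complex I, CYTB of complex III, COX1 to COX3 of complex IV, and ATP6 and ATP8 of ATP synthase. Skeletal muscle is rich in mitochondria, and all other proteins of these complexes are encoded in the nucleus.

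The 47 libraries held 13308433 to 32547565 counts each. Levels are given as CPM, the count divided by all counts in the library and multiplied by 1000000, and 3 counts corresponded to 0.0922 to 0.225 CPM. Since CPM is not corrected for gene length, levels are compared between libraries and not ranked between genes. The libraries were made from polyA RNA with a kit that does not mark strand. Each stage was deposited as its own table, and whether stages were handled together is not stated, so stage, generation and handling cannot be told apart. In bulk muscle, fewer mitochondria-rich cells and less mitochondrial RNA per cell cannot be told apart either. Markers of muscle fibres, blood, fat and connective tissue were not analysed here, since no identifier could be matched to a symbol.

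No identifier in the tables could be matched to a gene name directly, and the names used below rest on the order of the rows. In the RefSeq list of mitochondrial genes in genome order, 15 of the 37 places belong to proteins and ribosomal RNAs. Among the 37 rows, 15 had at least 10 counts in each of the 47 libraries, and 14 of these 15 stood at protein or ribosomal RNA places. Of the 22 rows at transfer RNA places, 20 had 0 counts in all 47 libraries. The order of the rows was therefore taken as genome order. The first exception was the row at place 21, where ATP8 lies, with 0 to 82 counts. The second was the last row, at place 37 where proline transfer RNA lies, with 784 to 3652 counts. Place 1, that of phenylalanine transfer RNA, had 0 to 25 counts.

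By this order, ENSBTAG00000043567 at place 2 is called the small ribosomal RNA and ENSBTAG00000043570 at place 4 the large ribosomal RNA. Complex I is represented by ENSBTAG00000043558 (ND1, place 6), ENSBTAG00000043571 (ND2, place 10), ENSBTAG00000043568 (ND3, place 25), ENSBTAG00000043559 (ND4L, place 27), ENSBTAG00000043577 (ND4, place 28), ENSBTAG00000043563 (ND5, place 32) and ENSBTAG00000043546 (ND6, place 33). Complex IV is represented by ENSBTAG00000043561 (COX1, place 16), ENSBTAG00000043556 (COX2, place 19) and ENSBTAG00000043560 (COX3, place 23). ATP synthase is represented by ENSBTAG00000043564 (ATP8) and ENSBTAG00000043584 (ATP6, place 22), and complex III by ENSBTAG00000043550 (CYTB, place 35). Some of these genes overlap a coding neighbour, namely ATP8 with ATP6, ATP6 with COX3, ND4L with ND4 and, on opposite strands, ND5 with ND6. How reads in such overlaps, or reads shared with copies of mitochondrial DNA in the nuclear genome, were counted is not given in the sources used here. The level of a single gene is therefore uncertain, and how far its change between libraries is affected was not tested.

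The mitochondrial genes took a small share of the fetal counts and a larger one after birth. The 37 rows made up 2.51% ± 1.22 of the counts in the 16 fetal libraries (SD), with a lowest value of 1.48%, a median of 2.001% and a highest of 5.54%. At birth the share was 7.50% ± 0.76 (SD, n = 16), from 6.40% to 8.85%. At slaughter it was 5.36% ± 0.74 (SD, n = 15), from 4.05% to 7.29%. Every newborn library lay above every fetal library. Slaughter libraries overlapped both other stages. Their overlap with birth rested on slaughter LG 14 alone, at 7.29%, since the next highest slaughter library was MG 47, at 5.94%. Their overlap with the fetus rested on fetal MG 20, at 5.54%, and fetal LG 22, at 5.19%. These 2 fetal libraries stood far from the other 14, and values with and without them are given below.

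**Figure D1:**
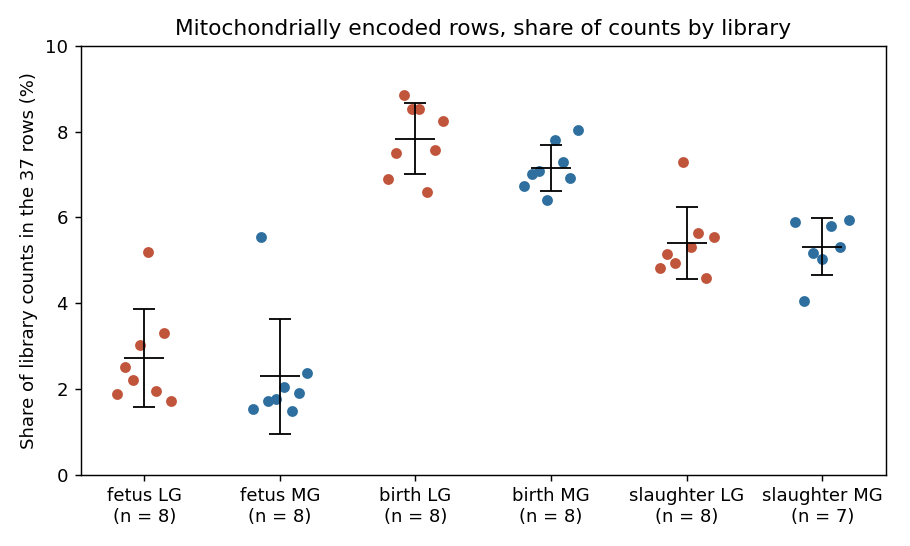
Share of each library's counts that fell in the 37 mitochondrial rows (percent, y axis) for LG and MG libraries of the 3 stages, with 1 point per library and bars for the mean ± SD. The 16 newborn libraries lie between 6.40% and 8.85%, above all fetal libraries, of which MG 20 (5.54%) and LG 22 (5.19%) lie apart from the others.

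Complex IV genes held most of these counts. COX1, which encodes the catalytic subunit, ran from 5903 to 25424 CPM in the fetus (median 10026), from 30811 to 43898 at birth (median 39539) and from 19710 to 30116 at slaughter (median 25397). All newborn libraries exceeded all fetal ones, and all 15 slaughter libraries lay below all 16 newborn ones. COX2, which carries the site that takes up electrons from cytochrome c, ran from 349 to 2716 CPM in the fetus (median 610.0), from 2825 to 4355 at birth (median 3453) and from 1844 to 4497 at slaughter (median 2657). COX3 ran from 3612 to 12610 CPM in the fetus (median 5817), from 7448 to 10670 at birth (median 8988) and from 5187 to 8864 at slaughter (median 6762). For COX3 the 3 stages overlapped, and the median library at slaughter was within the fetal range.

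The complex I genes were all low in the fetus, to unequal degrees. ND1 ran from 149 to 2603 CPM in the fetus (median 208), from 1220 to 3317 at birth (median 2670.5) and from 1412 to 4001 at slaughter (median 2477). In 15 of the 16 fetuses ND1 lay below every newborn and every slaughter library, the other being MG 20. ND2 ran from 100.1 to 1163 CPM in the fetus (median 196), from 870 to 2111 at birth (median 1534) and from 248 to 1433 at slaughter (median 736). ND2 was highest in newborn muscle, and 10 of the 15 slaughter libraries lay below all newborn ones.

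ND3 ran from 394 to 1620 CPM in the fetus (median 661), from 863 to 1743 at birth (median 1384) and from 561 to 1527 at slaughter (median 1035). Like COX3 it overlapped across all 3 stages. ND4 ran from 409 to 2269 CPM in the fetus (median 577), from 1407 to 3688 at birth (median 2672) and from 1981 to 4941 at slaughter (median 3307). Its median at slaughter was above that at birth. ND4L ran from 1.61 to 34.7 CPM in the fetus (median 11.9), from 28.5 to 104 at birth (median 63.2) and from 30.7 to 142 at slaughter (median 64.7).

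ND5 ran from 97.8 to 683 CPM in the fetus (median 294), from 1012 to 2670 at birth (median 2033) and from 956 to 2538 at slaughter (median 1517). ND6, the protein gene that lies on the other strand from the rest, ran from 30.97 to 193 CPM in the fetus (median 70.2), from 233 to 555 at birth (median 428) and from 196 to 550 at slaughter (median 313). ND5 and ND6 separated the fetus from both later stages with no overlap in any library, also with MG 20 and LG 22 included.

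CYTB, the cytochrome b of complex III, ran from 610 to 5695 CPM in the fetus (median 991), from 2492 to 5819 at birth (median 4908) and from 2934 to 6207 at slaughter (median 4556). ATP6, which forms part of the proton channel of ATP synthase, ran from 371 to 4953 CPM in the fetus (median 463), from 3297 to 4626 at birth (median 3823) and from 2211 to 4802 at slaughter (median 3384). The fetal maximum of both genes belonged to MG 20, and for ATP6 it was above every newborn and slaughter library. ATP8 was near the limit of detection in the fetus, with 0 to 0.89 CPM, and ran from 0.75 to 4.77 CPM at birth and from 0.51 to 2.49 at slaughter.

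The ribosomal RNAs build the ribosome that translates these messengers. The small one ran from 63.1 to 992 CPM in the fetus (median 212), from 631 to 1963 at birth (median 1148) and from 484 to 1269 at slaughter (median 634). The large one ran from 126 to 3253 CPM in the fetus (median 486), from 1247 to 7752 at birth (median 3036) and from 598 to 2148 at slaughter (median 905). The large one was highest in LG 10 (7752 CPM) and LG 25 (7619 CPM) among the newborns and in LG 29 among the fetuses. The libraries were selected for polyA RNA, and how much of each ribosomal RNA this kept was not measured.

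The row at the proline transfer RNA place ran from 48.9 to 160 CPM in the fetus (median 86.2), from 89.1 to 235 at birth (median 153) and from 59.0 to 196 at slaughter (median 103). It lay at the end of the run, next to the control region of the circle, and unlike the other transfer RNA rows it had counts in every library. The phenylalanine place never exceeded 1.41 CPM. With 0 counts in each library, the other 20 transfer RNA rows were each under 0.0922 to 0.225 CPM, depending on the library.

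**Figure D2:**
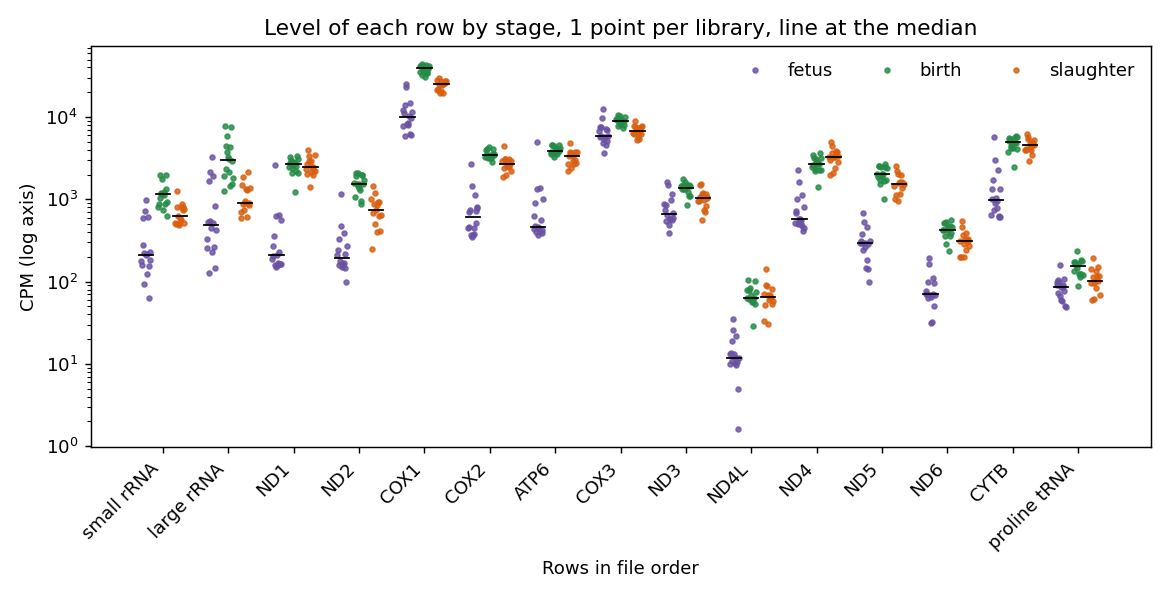
Level of 15 mitochondrial rows (CPM, log axis) in file order, 1 point per library and a line at the median, for the fetus (16 libraries), birth (16) and slaughter (15). Fetal points lie lowest for ND5 and ND6 with no overlap, while for COX3 and ND3 the stages overlap.

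The comparison of birth with the fetus asks how much each gene changed over the later part of gestation, across 2 generations of animals. Fits of edgeR's quasi-likelihood test used all genes that passed a filter on low counts, with TMM scaling and Benjamini-Hochberg adjustment over all genes tested. All 16 mitochondrial rows that passed the filter were higher at birth, while 37.9% of the 14820 genes tested were called higher and 44.0% lower. The members' median log2 fold change was 3.09 against -0.12 for all genes. P-values here measure only the spread between these libraries, since separate animals are not stated for each library number.

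Within complex I the fitted rises were unequal. ND5 was 12.4-fold higher at birth (log2 3.64, SE 0.19, edgeR adjusted p = 1.2e-18) and ND1 12.0-fold higher (3.58, SE 0.33). ND2 (3.38, SE 0.25), ND6 (3.26, SE 0.18), ND4L (3.21, SE 0.23) and ND4 (2.67, SE 0.19) followed, and ND3 was the smallest of the complex at 3.14-fold (1.65, SE 0.16, edgeR adjusted p = 2.6e-11). In complex IV, COX2 (3.10, SE 0.23) and COX1 (2.67, SE 0.16) rose by more than COX3, which was 2.53-fold higher (1.34, SE 0.13, edgeR adjusted p = 1.3e-11). The remaining log2 values were 3.09 (SE 0.29) for ATP6, 2.65 (SE 0.25) for CYTB, 3.17 (SE 0.35) for the large and 2.98 (SE 0.24) for the small ribosomal RNA, and 1.70 (SE 0.15) for the proline transfer RNA place. ATP8, with 0 to 0.89 CPM in the fetus, had a fitted value of 3.64 (SE 0.38).

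The size of these changes depends on how libraries are scaled. TMM, which sets the bulk of genes level, gave median scaling factors of 0.74 at birth and 1.38 in the fetus. Scaled instead by the total of the rows outside the 37, the median over all genes was -0.93 and that of the members 2.22. All 16 rows were still called higher, with COX3 at 0.53 (SE 0.12), ND3 at 0.84 (SE 0.16), COX1 at 1.82 (SE 0.17), ND1 at 2.68 (SE 0.35) and ND5 at 2.80 (SE 0.20). Over all genes that scaling called 2917 higher and 9092 lower, against 5619 and 6522 with TMM. The order with COX3, ND3 and the proline place (0.92, SE 0.13) as the 3 smallest rises was kept under both scalings.

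In raw CPM, 4 rows, COX1, COX2, ND5 and ND6, had all newborn libraries above all fetal ones, where 4.95% of 17725 rows did so. Without fetal MG 20 and LG 22, left out after their values were seen, the number was 11, beside 6.16% of the same 17725 rows, adding ND1, ND2, ND4, ND4L, ATP6, ATP8 and CYTB. These libraries had the highest fetal shares of mitochondrial counts. Leaving them out therefore eases separation of these rows by construction, and 6.16% is no equal background. Leaving out both libraries raised the fitted value of ND1 from 3.58 to 4.19 and of ATP6 from 3.09 to 3.61, and all 16 rows stayed called.

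Slaughter against fetus gave the same direction for all 16 rows tested, beside 38.4% of 14960 genes called higher and 45% lower. This comparison and that of birth share the fetal libraries. ND1 was highest at 12.9-fold (log2 3.69, SE 0.34, edgeR adjusted p = 1.4e-11), followed by ND5 (3.36, SE 0.20), ND4L (3.30, SE 0.25), ATP8 (3.238, SE 0.38), ND4 (3.06, SE 0.20) and ND6 (2.94, SE 0.20). ATP6 (2.90, SE 0.30), COX2 (2.84, SE 0.23), CYTB (2.69, SE 0.25), ND2 (2.43, SE 0.27), the small ribosomal RNA (2.31, SE 0.23) and COX1 (2.15, SE 0.16) lay in the middle. The large ribosomal RNA (1.62, SE 0.30), ND3 (1.35, SE 0.18), the proline place (1.31, SE 0.16) and COX3 (1.05, SE 0.13) were lowest.

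Scaled by the total of the other rows, 14 of the 16 were called higher, beside 20.6% of all genes called higher and 62.7% lower. The members' median went from 2.77 to 1.76, and that of all genes from -0.16 to -1.10. COX3 was then at 0.10 (SE 0.13, edgeR adjusted p = 0.460) and the large ribosomal RNA at 0.63 (SE 0.33, edgeR adjusted p = 0.076), so these 2 rows were not called on that scale. The ranges of ND5 and ND6 did not overlap, where 5.78% of rows had slaughter above fetus throughout. Without fetal MG 20 and LG 22 the ranges of 9 mitochondrial rows did not overlap, beside 7.53% of all rows, and ND1 was fitted at 4.33. Here too, leaving out these libraries eases separation of the mitochondrial rows by construction.

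**Figure D3:**
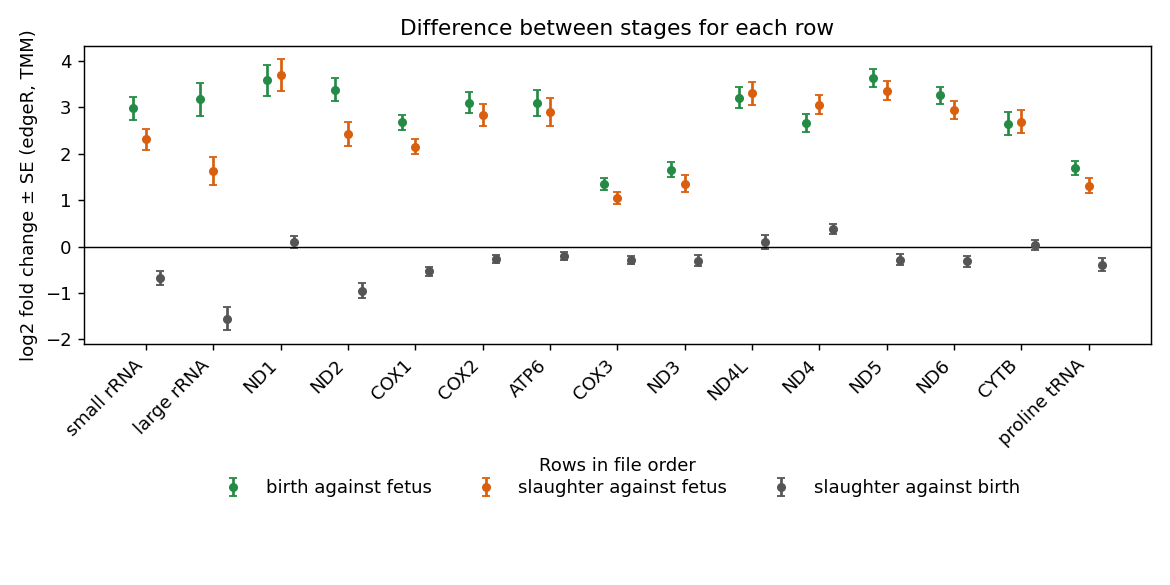
Fitted log2 fold change ± SE (edgeR, TMM scaling) of 15 mitochondrial rows in the 3 stage comparisons. COX3 (1.34 at birth and 1.05 at slaughter), ND3 and the proline transfer RNA place have the smallest rises over the fetus, and as shares of the mitochondrial counts these 3 were lower after birth than in the fetus; for slaughter against birth the large ribosomal RNA lies lowest at -1.56 and ND4 highest at 0.39.

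From birth to slaughter most mitochondrial rows fell, by unequal amounts. Of 16 rows tested, 11 were called lower, beside 33.3% of the 13369 genes tested, and 1 was called higher, beside 37%. The large ribosomal RNA fell most, to a 2.94-fold lower level (log2 -1.56, SE 0.25, edgeR adjusted p = 1.8e-06). ND2 fell by 0.96 (SE 0.16, edgeR adjusted p = 4.3e-06), the small ribosomal RNA by 0.68 (SE 0.15, edgeR adjusted p = 0.00016) and COX1 by 0.54 (SE 0.09, edgeR adjusted p = 5.6e-06). COX1 was the 1 row of 17 with no overlap between these stages, where 6.61% of all rows had slaughter below birth throughout. Such separation was therefore no more common among the mitochondrial rows than among all rows.

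The other 7 falls were 1.31-fold or smaller. They were those of the proline place (-0.39, SE 0.14), ND6 (-0.32, SE 0.12), ND3 (-0.31, SE 0.12), COX3 (-0.30, SE 0.09), ND5 (-0.28, SE 0.12), COX2 (-0.27, SE 0.09) and ATP6 (-0.20, SE 0.09, edgeR adjusted p = 0.043). ND4 was the 1 row that rose, by 1.31-fold (0.39, SE 0.11, edgeR adjusted p = 0.0020). ND1 (0.10, SE 0.12), ND4L (0.09, SE 0.15), CYTB (0.03, SE 0.11) and ATP8 (-0.41, SE 0.23) did not pass the test.

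Scaled by the total of the other rows, the median over all genes moved from 0.05 to -0.09 and that of the members from -0.30 to -0.44. ND4 was still called higher, at 0.26 (SE 0.11), ATP8 was also called lower, at -0.54 (SE 0.23), and ND1, ND4L and CYTB, not called on either scale, changed sign. Over all genes this scaling called 3979 higher and 5233 lower, against 4944 and 4446 with TMM.

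The mitochondrial RNA also differed in make-up between stages. Each row's counts were divided by the library's counts in all 37 rows, which leaves scaling against nuclear genes out. COX1 made up 45.3% ± 4.82 of the mitochondrial counts in the fetus (n = 16), 51.1% ± 3.46 at birth (n = 16) and 46.3% ± 4.46 at slaughter (SD, n = 15). COX3 made up 27.9% ± 6.46 in the fetus, 12.0% ± 1.05 at birth and 12.8% ± 1.00 at slaughter. The ratio of COX1 to COX3 counts was 1.71 ± 0.43 in the fetus, 4.27 ± 0.36 at birth and 3.64 ± 0.42 at slaughter. Its highest fetal value was 2.40 and its lowest value after birth was 2.72, so the fetus did not overlap either later stage.

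ND1, which lies just after the large ribosomal RNA, changed in the opposite way to COX3. It took 1.41% ± 0.97 of the mitochondrial counts in the fetus, 3.44% ± 0.57 at birth and 4.75% ± 0.75 at slaughter. Per count of COX3 there were 0.058 ± 0.061 counts of ND1 in the fetus (median 0.036), 0.289 ± 0.056 at birth and 0.374 ± 0.064 at slaughter (SD). Fetal MG 20, at 0.271, lay within the newborn and slaughter ranges of this ratio. ND3, whose gene follows COX3, was also a larger part of the fetal mitochondrial counts, at 3.33% ± 1.08 against 1.82% ± 0.24 at birth and 1.903% ± 0.34 at slaughter. The proline place took 0.38% ± 0.15, 0.20% ± 0.04 and 0.20% ± 0.05.

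In a fit with the counts of the 37 rows as library size, no p being given for members among themselves, the log2 difference of birth from the fetus was -1.22 for COX3 (SE 0.09), -0.92 for the proline place (SE 0.17) and -0.87 for ND3 (SE 0.12). It was 1.31 for ND1 (SE 0.19), 1.20 for ATP8 (SE 0.34), 1.12 for ND5 (SE 0.14) and 0.99 for ND2 (SE 0.16). Slaughter differed from the fetus by -1.13 for COX3 (SE 0.09), -0.82 for ND3 (SE 0.15) and 1.77 for ND1 (SE 0.19). Between birth and slaughter the members with the largest differences were the large ribosomal RNA, at -1.14 (SE 0.25), ND4, at 0.78 (SE 0.09), and ND2, at -0.56 (SE 0.15). CYTB (0.42, SE 0.07), ND1 (0.46, SE 0.09) and ND4L (0.47, SE 0.13) took larger parts at slaughter than at birth.

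**Figure D4:**
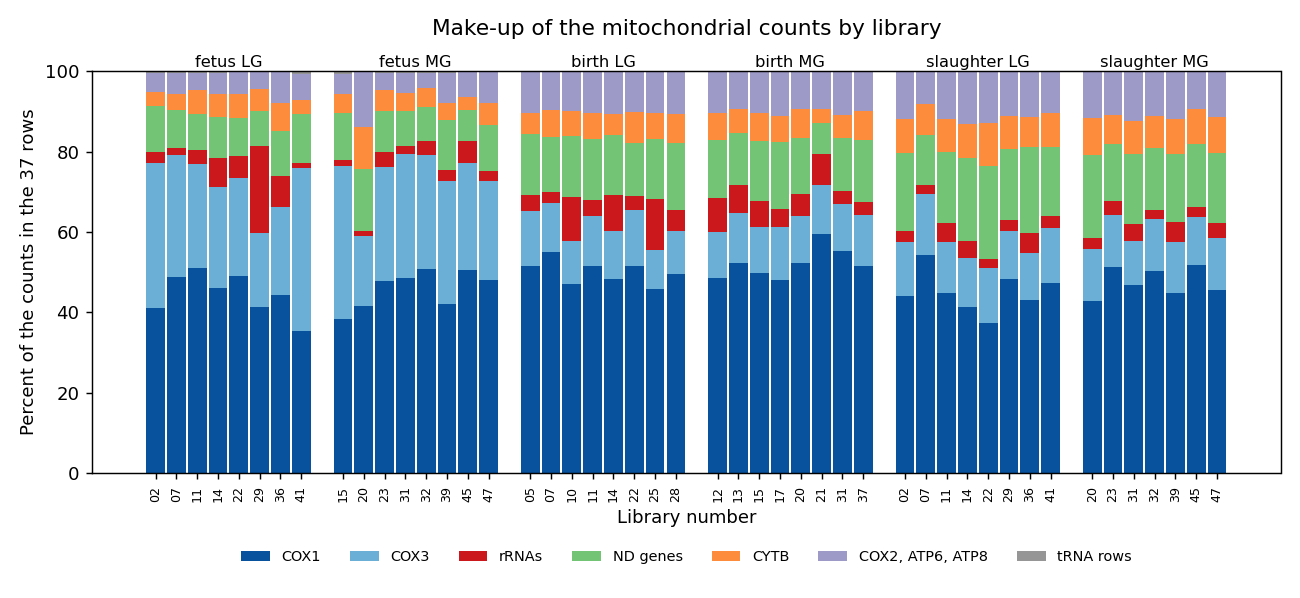
Make-up of the mitochondrial counts of each of the 47 libraries (percent of the counts in the 37 rows, y axis; library numbers, x axis), stacked by COX1, COX3, ribosomal RNAs, ND genes, CYTB, COX2 with ATP6 and ATP8, and transfer RNA rows. COX3 takes 27.9% on average in the fetus and 12.0% at birth, and the ribosomal RNAs take 21.7% in fetal LG 29.

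The balance of the 2 ribosomal RNAs was lowest for the large one at slaughter. Large ribosomal RNA counts were 2.36 ± 0.66 times the small ones in the fetus, 2.78 ± 0.78 times at birth and 1.59 ± 0.45 times at slaughter (SD). Together they were 4.67% ± 4.98 of the mitochondrial counts in the fetus, 6.12% ± 2.94 at birth and 3.34% ± 0.99 at slaughter. In newborn muscle they ranged from 2.85% in LG 07 to 12.7% in LG 25. Among fetuses they took 21.7% in LG 29 and at most 7.70% in the others.

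Within a stage, the spread between libraries was measured as the SD of log2 TMM-scaled CPM around the LG and MG means. In the fetus it was 1.25 for the large ribosomal RNA, above that of 93.2% of the 14200 genes tested, and 1.11 for ND1, above 88.0%. COX3 (0.44, above 33.0%) and the proline place (0.45, above 35.2%) were the least variable mitochondrial rows there, and the median over all genes was 0.56. At birth the large ribosomal RNA had an SD of 0.84, above 97.0% of 12485 genes, while ATP6 had 0.17, above 9.79%. At slaughter ND2 was the most variable row, with 0.63, above 84.9% of 12577 genes.

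Several libraries departed from their stage in different parts of the genome. In fetal MG 20, ND1 was 12.8 times the median of the other 15 fetuses, ATP6 10.9 times, ND2 6.52 times, CYTB 5.91 times and COX2 5.25 times. COX3 was 1.65 times that median, the large ribosomal RNA 1.20, the small one 1.07 and the proline place 0.77. The rise in this library was therefore uneven, with 11 of 15 rows above 2 times the median.

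Fetal LG 22 was raised throughout, from 1.83 times for ND5 to 4.74 times for the large ribosomal RNA, with all 15 rows above the median. Fetal LG 29 was raised in the ribosomal RNAs, 7.19 times for the large and 4.75 times for the small, while its other rows lay between 0.52 and 1.08 times. Fetal LG 41 was low in the ribosomal RNAs (0.29 times each) and in ND4L (0.13 times) and high in ND3 (1.78 times). LG 41 also had the fewest genes with a count of all libraries (15281) and LG 29 the most (18919), beside a fetal median of 17491.

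After birth the departures were smaller. In newborn MG 21, ND1 was 0.45 times the median of the other newborns, ND4L 0.44, ND5 0.49 and CYTB 0.51, while COX1 (1.13) and COX3 (0.99) were near it. Slaughter LG 14 was raised in all 17 rows with counts, from 1.19 times for COX1 to 2.20 times for ND4L. Slaughter LG 07 had ND2 at 0.31 times the median, the lowest of its rows, with COX3 at 1.19 times. What set these libraries apart was not tested.

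**Figure D5:**
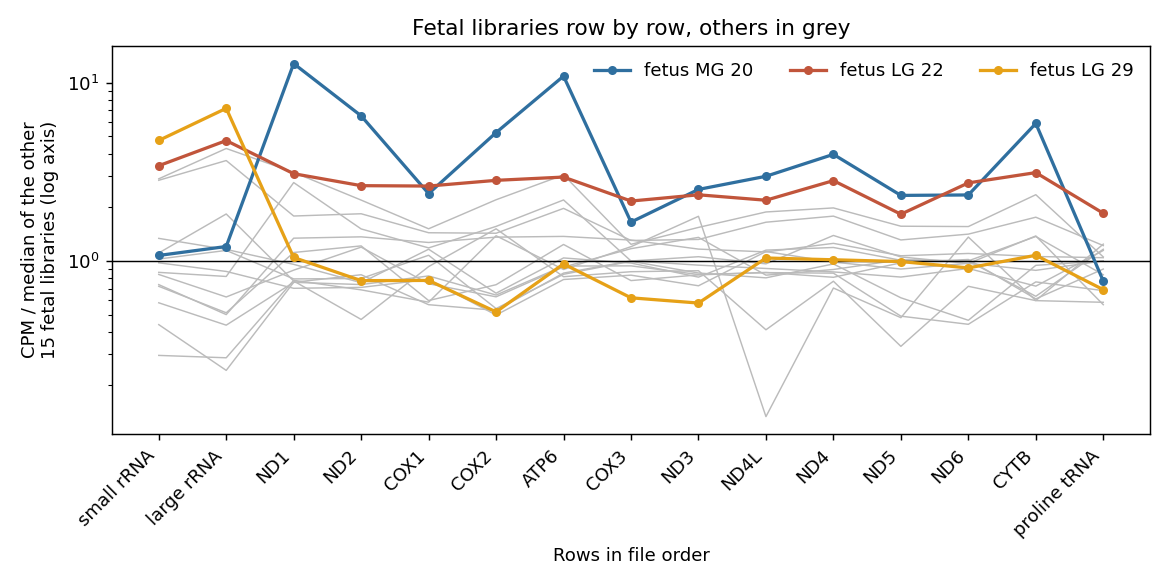
Level of each of 15 rows in each fetal library divided by the median of the other 15 fetal libraries (log axis), in file order, with MG 20, LG 22 and LG 29 coloured. MG 20 peaks at ND1 (12.8) and ATP6 (10.9), LG 22 is above 1 for all rows, and LG 29 is raised at the ribosomal RNAs (7.19 for the large one).

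The comparison of LG with MG within each stage asks whether the early diet of the dam or granddam was followed by a difference in the offspring's mitochondrial RNA. By edgeR, 0 mitochondrial rows and 0.00% of genes were called in either direction at birth, at slaughter and in the fetus. At an unadjusted p under 0.05 there were 515 of 12485 genes at birth, 230 of 12577 at slaughter and 102 of 14200 in the fetus. DESeq2 also called 0 at each stage, with 547, 253 and 215 genes below that level. In raw CPM, 0 of the mitochondrial rows separated LG from MG without overlap at any stage, where 0.00564% of rows did so (lower in LG) at birth, 0.00564% (higher in LG) in the fetus and 0.00% otherwise.

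At birth the share of counts in the 37 rows was 7.84% ± 0.83 in the 8 LG libraries and 7.16% ± 0.54 in the 8 MG libraries (SD). All 16 rows tested had a fitted value above 0 for LG over MG, beside 48.3% of all genes, with a median of 0.28 against -0.01 over all genes. Rows of 1 library are not independent, so these are not 16 separate observations. ND4L had the smallest p of the members. In LG its lowest level was 56.7 CPM, the median 78.9 and the highest 104, and in MG these were 28.5, 61.0 and 74.3, with 5 of 8 LG libraries above all MG ones. Its fold was 1.38 (95% interval 1.08 to 1.75, log2 0.46, SE 0.17, unadjusted p = 0.013, edgeR adjusted p = 0.985).

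ND6 (0.35, SE 0.13, unadjusted p = 0.013) and ND5 (0.38, SE 0.14, unadjusted p = 0.016) had edgeR adjusted p = 0.985 as well. COX1, with 39119 ± 3803 CPM in the LG and 37394 ± 4397 CPM in the MG libraries (SD, n = 8 each), had a fold of 1.06 (95% interval 0.87 to 1.29). The values of the 3 ND genes were lowest without newborn MG 21, at 0.37 for ND4L, 0.29 for ND6 and 0.30 for ND5.

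At slaughter the share was 5.40% ± 0.84 in LG (n = 8) and 5.31% ± 0.66 in MG (SD, n = 7). Of the 16 rows tested, 14 had a fitted value above 0, beside 50.1% of all genes, and the median of the 16 was 0.11 against 0.00 over all genes. ND4 had the smallest p, with 3554 ± 906 CPM in the LG and 3035 ± 592 CPM in the MG libraries (SD) and a fold of 1.18 (95% interval 0.94 to 1.48, unadjusted p = 0.147, edgeR adjusted p = 1.00). Without slaughter LG 14 its log2 value went from 0.24 to 0.16. Without that library 8 of the 16 rows were fitted above 0, beside 46.4% of all genes, with a median of -0.0086.

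In the fetus the share was 2.72% ± 1.14 in the 8 LG libraries and 2.29% ± 1.34 in the 8 MG libraries (SD), with medians of 2.36% and 1.84%. The ribosomal RNAs had the smallest p of the members. The small one ran from 63.1 to 992 CPM in LG and from 94.0 to 232 in MG, and 5 of 8 LG libraries (11, 14, 22, 29 and 36) lay above all MG ones. The large one ran from 148 to 3253 CPM in LG and from 126 to 830 in MG, with 4 of 8 LG libraries above all MG ones. LG libraries thus held both the lowest and the highest values of the small ribosomal RNA.

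The fitted fold of LG over MG was 2.48 for the small ribosomal RNA (95% interval 1.40 to 4.40, log2 1.31, SE 0.39, unadjusted p = 0.0038, edgeR adjusted p = 1.00). For the large ribosomal RNA it was 2.99 (95% interval 1.37 to 6.51, log2 1.58, SE 0.53, unadjusted p = 0.0083, edgeR adjusted p = 1.00). Without fetal LG 29 the log2 values were 1.06 and 1.24. The proline place was at 0.51 (SE 0.22, unadjusted p = 0.028, edgeR adjusted p = 1.00), and at 0.34 without fetal LG 22.

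Over the 15 rows tested, which include the ribosomal RNAs and the proline place, the fetal values of LG and MG depended on 2 libraries. With all libraries 12 of 15 rows were fitted above 0 (median 0.30, against -0.04 over all genes). An unadjusted p under 0.05 was found for 3 rows, beside 0.718% of all genes. These were the ribosomal RNAs and the proline place, so no protein gene had such a p. Without MG 20, 15 rows were above 0 (median 0.61, against 0.045) and 12 had such a p, beside 2.66%. Without LG 22, 8 rows were above 0 (median 0.026, against -0.082) and 2 had such a p, beside 0.666%. Without both, 15 rows were above 0 (median 0.43, against 0.040) and 7 had such a p, beside 1.49%. Over all genes, 43.2% were fitted above 0 with all libraries, 57.2% without MG 20, 35.7% without LG 22 and 57.4% without both. Rows of 1 library are not independent, so these counts of rows are not separate observations. MG 20 and LG 22 were singled out because most of these rows were high in them. Leaving out MG 20 therefore raises LG over MG for most of these rows by construction, and leaving out LG 22 lowers it. The shares over all genes carry no such selection, so they are no equal background. After adjustment edgeR called 0 genes in each of these fits. ND1 was fitted at -0.58 (SE 0.58), ATP6 at -0.43 (SE 0.52) and ND2 at -0.12 (SE 0.42) with all libraries, and at 0.60 (SE 0.33), 0.60 (SE 0.29) and 0.61 (SE 0.24) without MG 20. With all libraries entered, DESeq2 fitted ND1 at 0.57, ATP6 at 0.56 and ND2 at -0.18. It was run with its default replacement of outlying counts, and which counts were replaced was not recorded, so these values may not use every count. Without both MG 20 and LG 22 the edgeR values were 0.41, 0.43 and 0.44. Raw means of ND1 were 334 ± 194 CPM over the 8 LG and 524 ± 851 CPM over the 8 MG libraries (SD), although 7 of 8 LG libraries lay above the MG median.

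Whether LG and MG differed by unlike amounts at 2 stages was tested in 1 edgeR model over all 47 libraries. For the mitochondrial rows 0 interactions were called, beside 0.00% of the 15264 genes tested, and 468, 449 and 341 genes had an unadjusted p under 0.05 for slaughter minus birth, birth minus fetus and slaughter minus fetus. DESeq2 called 2, 2 and 1 genes in these, none of them mitochondrial. The members with the smallest p were the large ribosomal RNA, whose LG over MG value was lower at slaughter than in the fetus by a log2 difference of -1.67 (SE 0.59, unadjusted p = 0.0068, edgeR adjusted p = 1.00), and the small one (-1.09, SE 0.41, unadjusted p = 0.010, edgeR adjusted p = 1.00).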

How the data were processed

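Bovine muscle RNA was made into polyA libraries without strand information and sequenced from both ends, per the labels' protocols. The deposited values are raw counts per Ensembl identifier, as whole numbers, in 1 table per stage. The submitters' processing notes list STAR 2.7.3a, edgeR 3.24.3, FastQC 0.11.8 and MultiQC 1.9. The build of the genome, its annotation and the program that counted reads were not given in the sources used here. Libraries were grouped by their treatment and timepoint, and 0 per-sample columns were left unused.

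Names of the 37 rows come from their order beside the RefSeq mitochondrial genes of ARS-UCD2.0, since that list held 0 Ensembl identifiers to match. For the same reason the nuclear mitochondrial gene lists and the cell type markers were not run. CPM is the count over the library's total, times 1000000. Tests used R 4.3.3 and edgeR 4.0.16 (filterByExpr, TMM, robust quasi-likelihood, Benjamini-Hochberg at 0.05 over all genes tested). Stages were compared through the mean of LG and MG, LG with MG within each stage, and interactions in 1 model. Ranges were compared over rows with at least 10 counts in 1 library. The tests were tried on simulated data with known changes. The simulated data had the same spread setting for every gene and no outlying libraries, so they do not show how the tests behave on the fetal libraries.

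All 37 rows are accounted for. Named with values were rows of at least 100 CPM on average at any stage and, at each stage, the row whose LG and MG comparison had the smallest p, with ATP8 and the phenylalanine place added after their values were seen, while other rows are given as counts or as parts of a group. Alternatives were DESeq2 1.42.0, its size factors in edgeR, the total of the other rows, no filter, the 37 rows as library size, a block by library number, and leaving out libraries. Leaving out fetal MG 20 and LG 22 together, and the ribosomal RNA rows, was chosen after seeing the data. The members and lists were chosen with earlier results of these data known.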

Additional observations from a re-analysis of the deposited data

Results flagged for a closer look

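Among 108 sets of values, each 1 group of libraries for 1 mitochondrial row or for a share, 22 had 1 library far from the others by Dixon's criterion, where chance gives about 1 in 20, and rows of 1 library are not independent. Fetal MG 20 lay far above the other 7 MG fetuses for COX1 (23062 CPM), COX3 (9607), COX2 (2716), CYTB (5695), ATP6 (4953), ND1 (2603), ND4 (2269), ND3 (1620), ND2 (1163), ND5 (683), ND6 (165) and ND4L (34.7), and for the share of counts in the 37 rows (5.54%). The ribosomal RNAs and the proline transfer RNA place were not far from the group in that library.

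Fetal LG 22 lay far above the other LG fetuses for COX1 (25424 CPM), COX3 (12610), ND6 (193) and the share of counts (5.19%). In fetal LG 29 the ribosomal RNAs were 21.7% of the mitochondrial counts, far above the others. Slaughter LG 14 was far above its group for COX2 (4497 CPM), ND1 (4001) and the share of counts (7.29%), and newborn MG 21 was far below its group for ND4L (28.5 CPM). What set these libraries apart was not tested.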

How the results depend on the processing

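Of 638 values of named rows under the alternatives, 598 were counted as kept, 18 were no longer called, 1 was newly called and 21 changed sign. Kept means the same direction and side of the threshold, but for values as parts of the 37 rows only the direction was compared. All 142 values for LG against MG, of ND4 at slaughter and the rows with an unadjusted p under 0.05 elsewhere, were among those kept. These rows were picked for their small p and were not called in the main fit, so little change could show. Fetal ND1, ATP6 and ND2 are outside this count, and their LG against MG values changed sign without fetal MG 20. As parts of the 37 rows, birth against fetus changed sign for COX3 (-1.22), ND3 (-0.87) and the proline place (-0.92), slaughter against fetus for COX3 (-1.13), ND3 (-0.82), the large ribosomal RNA (-0.59) and the proline place (-0.92), and slaughter against birth for ATP6 (0.19), COX2 (0.12), ND5 (0.10), COX3 (0.085), ND6 (0.058), ND3 (0.056) and the proline place (0.0050), as that scale removes the common change by construction. For slaughter against birth, rows not called changed sign with the total of the other rows, namely CYTB (-0.089), ND1 (-0.036) and ND4L (-0.029), and CYTB ran from -0.033 without newborn MG 17 to 0.0039 without slaughter LG 14. Library numbers shared by slaughter and birth (6) were not taken to pair the libraries, since only 3 correlations of deviations were over 0.1 (0.017 to 0.346). All were above 0, however, and 4 of 6 slaughter libraries were best matched by their own number, a hint from the data and not the design. Each of these 6 numbers also carried the same treatment at both stages. Weak correlations cannot exclude that the libraries come from the same animals, and the main fits treat them as independent. With the replicate block over these 12 libraries 6 of 16 members were called, beside 54.3% of genes, and without it 3, beside 53.7%, both on fewer libraries by construction than the 31 that gave 12, and ND4 was called in neither. Under the block ATP8 was 0.034 and CYTB -0.0060, and without it CYTB was -0.00021. Nor were shared numbers taken to pair fetal libraries with birth (7 shared, -0.385 to 0.161) or slaughter (15 shared, -0.440 to 0.458), and the block left all 16 members called against the fetus. Those shared numbers too carried the same treatment at both stages, and whether they mark related animals is not stated. DESeq2 called 2, 2 and 1 genes for the interactions slaughter minus birth, birth minus fetus and slaughter minus fetus, where edgeR called 0; the cause was not tested. Without the 10 most abundant other rows in the total, the share was 9.47% at birth and 6.91% at slaughter, and without COX1 and COX3 it was 2.77%, 2.21% and, in the fetus, 0.711%. Leaving out each library in turn called 0 genes for LG against MG at each stage, with 378 to 1023, 215 to 377 and 74 to 380 genes at an unadjusted p under 0.05 for birth, slaughter and fetus. Low counts limit ATP8, with 0 to 14 counts in the fetus, and the phenylalanine place, with 0 to 8. For ATP8, which overlaps ATP6, how reads in the overlap were counted is not given.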
